A study of Mus musculus with 43 samples.

Results

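Adult mice with floxed Bcl6 were exposed to 4 C at 9 weeks of age, and RNA of their inguinal white fat was compared between animals labelled with and without Prx1-cre. The members are 8 of the 43 libraries of the series: 4 labelled Bcl6 f/f and 4 labelled Bcl6 f/f Prx1-cre. All 8 carry the floxed Bcl6 allele and all 8 were kept at 4 C, so neither group is wild type and neither is a warm control. The series as a whole holds 9 groups of mouse inguinal fat that differ in age, housing temperature and genotype. By its title it asks whether beige fat cells arise near weaning and in the cold through different routes. Of 22622 gene rows, 13496 reached a normalized count of 10 in at least 4 of the 8 libraries and were tested.

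BCL6 is a zinc finger repressor of transcription that recruits corepressors and binds DNA sites much like those of STAT5, the factor that carries growth hormone and cytokine signals to the nucleus. Beige adipocytes are fat cells of white depots that burn fuel for heat through the proton carrier UCP1, and cold drives their appearance through noradrenaline and its beta receptors. Prx1-cre uses a Prrx1 enhancer and promoter that is active in limb bud and other early mesenchyme, so recombination is expected in the fat cell lineage of this depot and also in other mesenchymal cells of the tissue. The RNA comes from whole tissue, in which fewer cells of a type and less RNA per cell cannot be told apart. The labels do not state that each sample came from its own animal. The p-values below therefore measure only the spread between these samples, part of which may be technical.

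The depth of the 8 libraries, estimated from the value of a single read, ran from about 16870000 to 30730000 reads. Adipoq, Plin1 and Cfd, which define adipocytes, were high in each library. The 8 libraries correlated at 0.932 to 0.988 within a group and at 0.927 to 0.968 between groups. Floxed replicate 3 stood apart. Its 15 skeletal muscle markers summed to 543100 normalized counts, 2.05% of the library, against 274.2 to 23630 in the other libraries, and its mammary epithelium markers summed to 8155, against 42390 to 57010 in the other floxed libraries and 16320 to 29370 in those labelled Prx1-cre. The keratin Krt8 was likewise at 732.3 in floxed replicate 3, at 7614 to 11150 in the other floxed libraries and at 2049 to 6020 in those labelled Prx1-cre. Most counts are therefore given with and without floxed replicate 3, and for many of them the libraries that decide the count are named. Xist was between 20650 and 28370 in all 8 libraries. The T cell marker Cd3e was near 0, at 4.414 to 14.74.

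**Figure D1:**
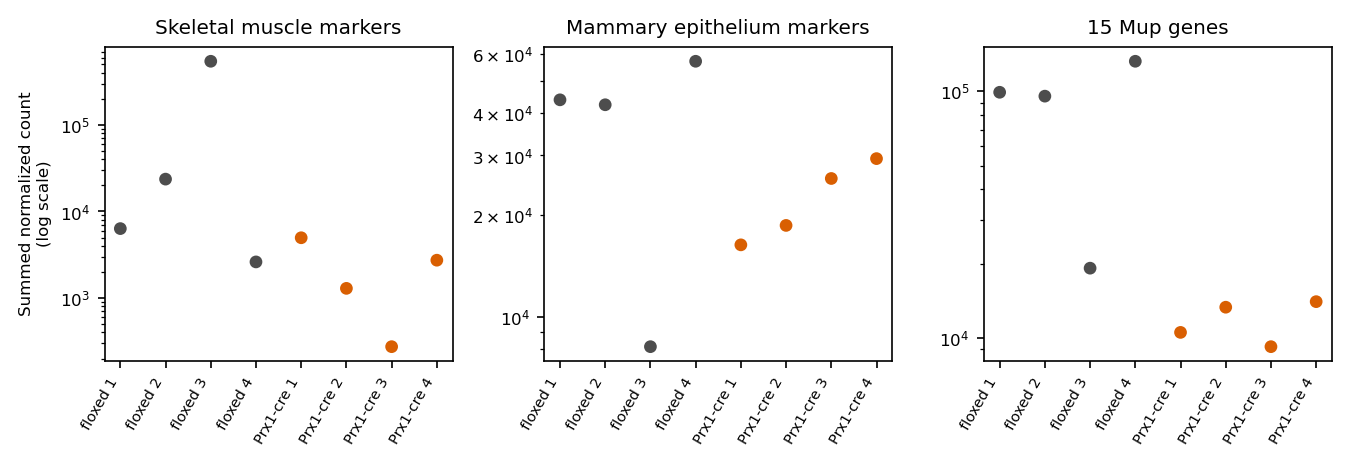
Summed normalized counts (log scale) of the skeletal muscle markers, the mammary epithelium markers and the Mup genes in each of the 8 libraries (grey, floxed; orange, labelled Prx1-cre). Floxed replicate 3 is the highest for muscle, at 543100, and the lowest for mammary epithelium, at 8155.

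The Bcl6 gene total did not fall in the libraries labelled Prx1-cre. Bcl6 (gene ID 12053, mm10 chromosome 16, 23965050 to 23988866) was at 1607, 2007, 1836 and 2529 normalized counts in floxed replicates 1 to 4 and at 14490, 12530, 9791 and 9624 in replicates 1 to 4 labelled Prx1-cre. The lowest library labelled Prx1-cre was thus well above the highest floxed one. The log2 fold change was 2.54 ± 0.17 (SE, n = 4 each, limma adjusted p = 0.000209). A gene total counts reads over all exons and does not show whether the floxed exons are present, so it checks neither label, and every direction below is between libraries as labelled. Prrx1, the source of the Cre driver, was at 1536 ± 196 in floxed libraries and 1296 ± 121 in those labelled Prx1-cre (SD, n = 4 each, limma adjusted p = 0.154). Of 15 tested genes of the BCL6 corepressor list, 0 passed with all libraries (limma, with 2 at an unadjusted p under 0.05) and 2 did without floxed replicate 3, 1 in each direction.

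Because BCL6 and STAT5 recognise related sites, the 250 bases before each annotated start of Bcl6 were searched for the STAT5 pattern TTCNNNGAA, which reads the same on both strands. Both windows, from RefSeq on GRCm38 (mm10), lie on the minus strand. The first precedes the start of the gene. The second precedes an inner start and lies in the intron between exons 1 and 2 of the longest GENCODE transcript. Capitals mark the pattern.
Bcl6, before the first start, chr16:23988853-23989102: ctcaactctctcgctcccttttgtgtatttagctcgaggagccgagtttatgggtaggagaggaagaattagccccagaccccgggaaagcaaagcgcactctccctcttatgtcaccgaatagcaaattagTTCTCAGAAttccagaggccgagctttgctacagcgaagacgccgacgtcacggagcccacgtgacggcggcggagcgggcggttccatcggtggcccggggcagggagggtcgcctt
Bcl6, before the inner start, chr16:23981284-23981533: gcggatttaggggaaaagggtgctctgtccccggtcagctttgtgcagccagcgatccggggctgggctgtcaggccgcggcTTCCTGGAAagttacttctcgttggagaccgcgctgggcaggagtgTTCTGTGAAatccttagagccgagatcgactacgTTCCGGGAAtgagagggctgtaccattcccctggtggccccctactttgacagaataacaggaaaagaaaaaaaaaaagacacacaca
The first window holds 1 match, at -118 from the start, and the second holds 3, at -168, -122 and -88. Of 13642 start windows (250 bases before to 50 after a start) of the tested genes with an entry, 944 (6.92%) held at least 1 match and 3 (0.022%) held 3 or more, those of Bcl6, Stambpl1 and Zfp93. Stambpl1 and Zfp93 did not pass, at log2 fold changes of -0.14 and -0.17. Among windows of genes that rose, 83 of 1210 (6.86%) held the pattern, and among those of genes that fell 29 of 729 (3.98%). The BCL6 core TTCCTAGAA, searched on both strands and itself an instance of TTCNNNGAA, was in 54 of all windows (0.396%), in 4 of those of genes that rose and in 0 of those of genes that fell. A match is a run of letters and not evidence of binding, and these shares are given without a test.

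In all, 1953 genes changed (14.5% of those tested, limma adjusted p under 0.05), 1216 up (9.01%) and 737 down (5.46%). The counts of each gene list are to be read beside these shares. Changes of 1 or more on the log2 scale numbered 369 up and 166 down. The median log2 fold change of all tested genes was -0.02. Without floxed replicate 3 the count was 3536 (26.2%), with 1843 up (13.7%) and 1693 down (12.5%), so the share of rises among the calls went from 62.3% to 52.1%. Of the 1953 genes, 1924 were also called in the same direction without that library, so its removal mainly added genes. The count fell below the main one by over 1.5 times without floxed replicate 1 (1048) or 2 (1088) and without replicate 1 (1103) or 2 (1261) labelled Prx1-cre.

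**Figure D2:**
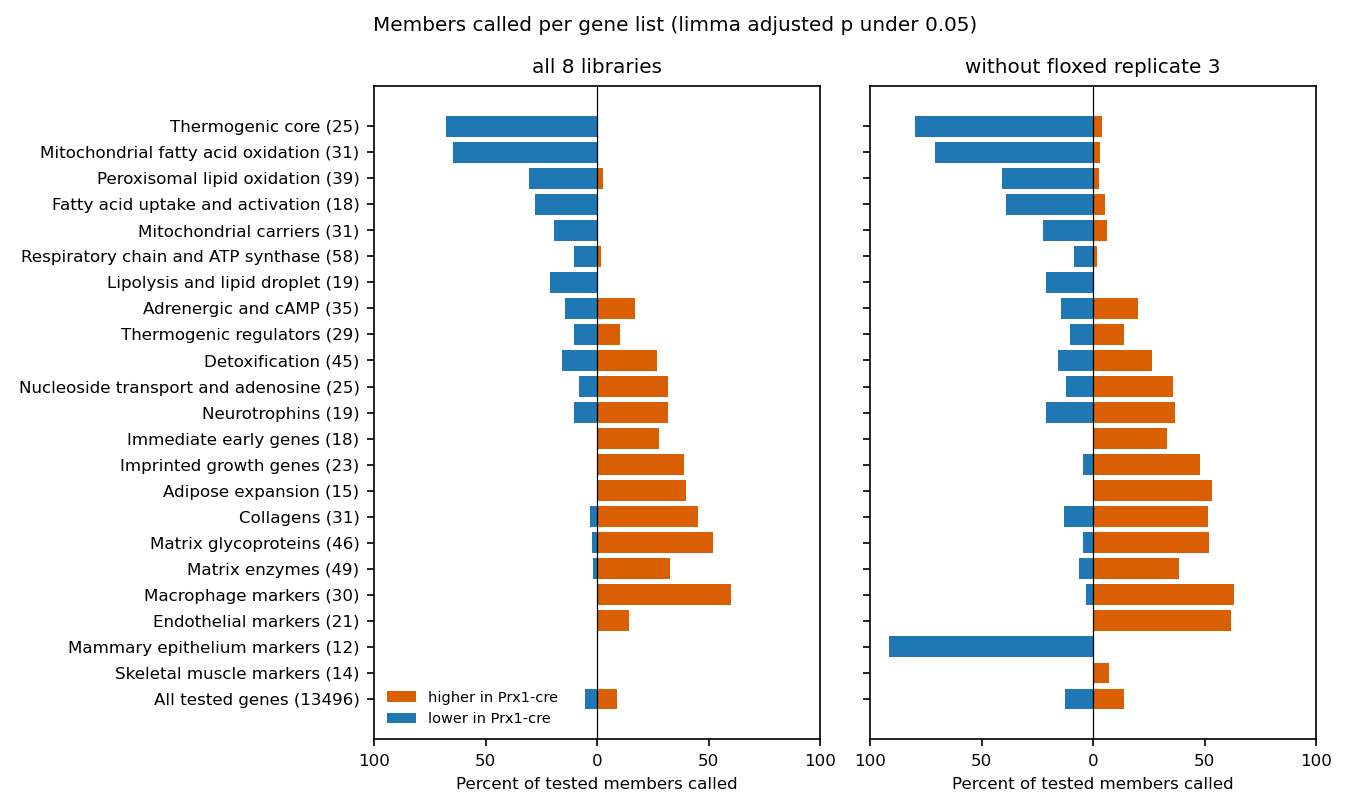
Percent of the tested members of each gene list that rose (orange) or fell (blue) in libraries labelled Prx1-cre, with all 8 libraries (left) and without floxed replicate 3 (right). The core thermogenic (17 of 25) and mitochondrial fatty acid oxidation (20 of 31) rows reach far to the left and the macrophage row (18 of 30) far to the right in both panels, while the mammary and endothelial rows differ between the panels.

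Genes of heat production fell. Of 25 tested members of the core thermogenic list 17 fell and 0 rose, with a median of -1.32 against -0.02 over all tested genes. With floxed replicate 3 left out, 20 fell and 1 rose. The size of the fall differed between libraries labelled Prx1-cre: Ucp1, the proton carrier, was at 6772, 20910, 27360 and 13530 in replicates 1 to 4, against 85420, 67380, 58720 and 54990 in the floxed libraries. Replicate 1 labelled Prx1-cre was the lowest library and replicate 3 the highest of its group, and the groups did not overlap. Elovl3, which elongates saturated fatty acids, kept that order, at 111.8, 290.6, 594.9 and 249.8 against 4903, 2824, 3503 and 2137 (log2 fold change -3.59 ± 0.46, limma adjusted p = 0.00259). Slc27a2, which takes up and activates very long chain fatty acids, was at 31.18, 95.68, 167.4 and 130.2 against 1015, 950.5, 745.8 and 985.6 (log2 fold change -3.33 ± 0.45).

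Cidea, which enlarges lipid droplets in heat-producing fat cells, was at 1817, 4400, 6203 and 3418 in libraries labelled Prx1-cre and at 19620, 14690, 17440 and 12390 in the floxed ones. Cox8b, a cytochrome oxidase subunit of brown fat and muscle, was at 669.1, 1268, 1787 and 957 against 4622, 3862, 4245 and 3469. These genes too were lowest in replicate 1 labelled Prx1-cre and highest, within that group, in replicate 3. Fabp3, a fatty acid binding protein, was at 194.5, 1369, 1979 and 1367 against 10150, 7092, 7942 and 6010 (log2 fold change -3.05 ± 0.65). Fabp3 missed the threshold without floxed replicate 1 (limma adjusted p = 0.0539). Gk, the glycerol kinase that lets thermogenic fat reuse glycerol, fell at -2.34 ± 0.40, and Phospho1, a phosphatase of phosphocholine and phosphoethanolamine, at -2.69 ± 0.37. Perm1, a regulator of oxidative genes named from muscle, fell from 703.1 ± 217 to 122.8 ± 56 (SD, n = 4 each). It was also lower without floxed replicate 3, the library with the most muscle transcripts, at -2.43 against -2.61 with it.

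**Figure D3:**
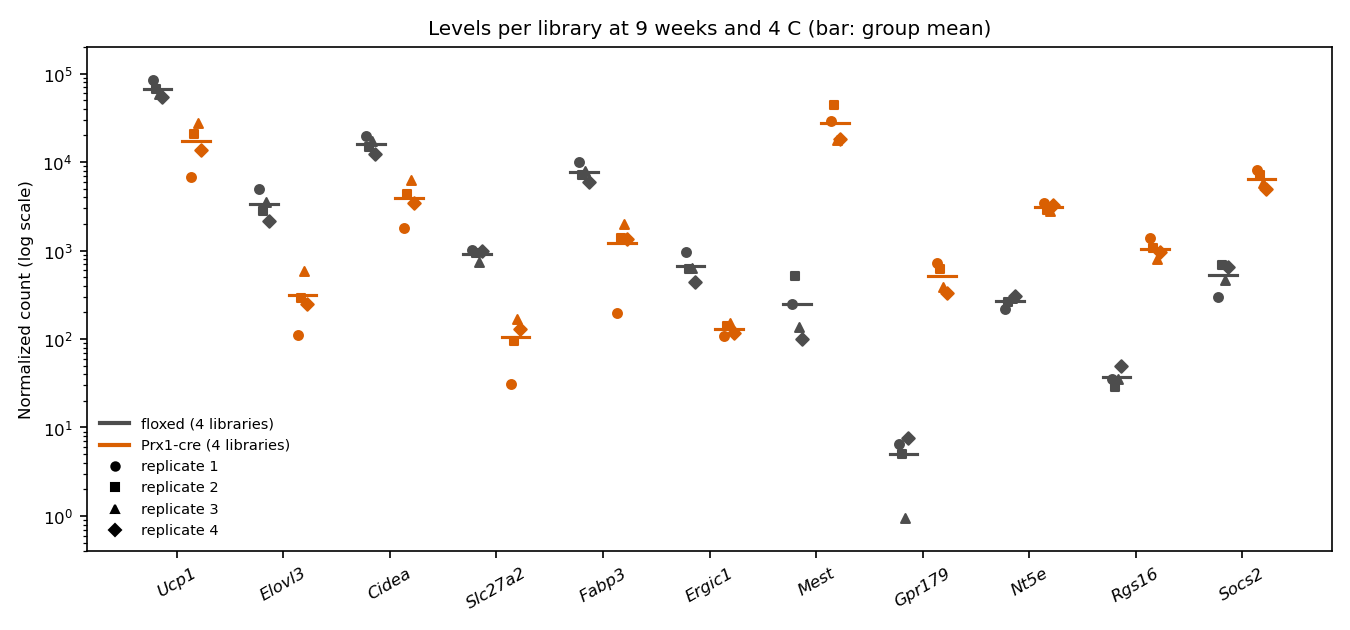
Normalized counts (log scale) of 11 genes in each library (grey, floxed; orange, labelled Prx1-cre; marker shape, replicate number; bar, group mean). The 6 genes on the left are lower and the 5 on the right higher in every library labelled Prx1-cre than in any floxed library. All but Ucp1 and Cidea are among the largest rises and falls, which were taken only from genes without overlap.

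The factors that direct the thermogenic programme moved in both directions. Of 29 tested regulators 3 rose and 3 fell, with a median of -0.04 (4 and 3 without floxed replicate 3), where 9.01% of all tested genes rose and 5.46% fell. The falls numbered 0 at the lowest, and were fewer by over 1.5 times without floxed replicate 1, 2 or 4 or replicate 1, 2 or 4 labelled Prx1-cre. Ppargc1a, the coactivator of mitochondrial genes, was at 1458 ± 219 in floxed and 1558 ± 283 in libraries labelled Prx1-cre (SD, n = 4 each, limma adjusted p = 0.715), and Prdm16, which specifies beige and brown fat, was at 593.1 ± 22 and 581.2 ± 77 (adjusted p = 0.828). The groups overlapped for both. The 3 that rose were Mecom, a relative of Prdm16, at 222.7, 221.9, 285.2 and 202.8 against 591.2, 534.6, 537 and 561.3 (log2 fold change 1.26 ± 0.11), Zfp423, which represses thermogenic genes in white fat cells, at 0.84 ± 0.17, and the corepressor Nrip1 at 0.78 ± 0.15. Each rose with and without floxed replicate 3. Ppara, the nuclear receptor that drives fatty acid oxidation genes, fell from 3230 ± 550 to 1403 ± 532 (SD, n = 4 each; log2 fold change -1.28 ± 0.29). It missed the threshold without floxed replicate 1 (limma adjusted p = 0.0661). Pparg, the master regulator of fat cells, was at 5951 ± 2086 and 7287 ± 2232 (adjusted p = 0.512).

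The machinery that receives noradrenaline changed in both directions. Of 35 tested adrenergic and cAMP genes 6 rose and 5 fell (7 and 5 without floxed replicate 3). The rises numbered 2 to 4 without floxed replicate 1, 2 or 4 or replicate 2 labelled Prx1-cre, and the falls 4 to 6 whichever library was left out. Rgs16, which shortens G protein signals, was at 35.37, 28.51, 34.88 and 49.52 in floxed libraries and at 1393, 1070, 795.7 and 953.4 in those labelled Prx1-cre (log2 fold change 4.79 ± 0.21, limma adjusted p = 2.53e-05). Adrb3, the main beta receptor of fat cells, fell from 9462 ± 2208 to 4534 ± 1083 (log2 fold change -1.07 ± 0.21). Adcy5, which makes cAMP, was at 3106, 3718, 4519 and 3239 against 1027, 1860, 2032 and 1576. Pde4a, which breaks cAMP down, was at 1017, 971.7, 973 and 831.3 against 422.5, 535.6, 541.9 and 420.4. Both fell without overlap, while the alpha receptor Adra1a rose at 0.72 ± 0.12.

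Mitochondrial fatty acid oxidation fell as a group: 20 of 31 tested members fell and 0 rose, with a median of -0.57 and 29 of the 31 below 0. Leaving out floxed replicate 3 gave 22 falls and 1 rise. Acsf2, a medium chain acyl-CoA synthetase, was at 6099, 4932, 5964 and 5103 in floxed libraries and at 2062, 2368, 2625 and 1910 in those labelled Prx1-cre (log2 fold change -1.31 ± 0.12). Slc25a20, the carnitine carrier of the inner membrane, was at 11330, 9455, 10650 and 8593 against 2645, 4151, 5471 and 4178. Acadl, the long chain acyl-CoA dehydrogenase, fell from 32610 ± 2950 to 15320 ± 3319, and Hadhb, a subunit of the trifunctional protein, from 32780 ± 4640 to 16230 ± 3140 (SD, n = 4 each). For these 4 genes each library labelled Prx1-cre lay below each floxed library.

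Peroxisomal lipid oxidation fell in part. Of 39 tested members 12 fell and 1 rose (16 and 1 without floxed replicate 3), and 7 fell without floxed replicate 1. With library weights, and likewise with the Xist covariate, 20 fell. That covariate was a cut at the midpoint of the Xist range, although Xist was high in every library. Above the cut were floxed replicates 1, 2 and 4 and replicate 4 labelled Prx1-cre. The covariate thus overlaps with the label and sets floxed replicate 3 apart from its group. Ehhadh, the bifunctional enzyme of the peroxisome, was at 7213, 5319, 6396 and 4653 against 1112, 1547, 2131 and 1978 (log2 fold change -1.82 ± 0.22), and the thiolase Acaa1b fell at -1.43 ± 0.16. Pex3, needed to build the peroxisomal membrane, fell at -0.64 ± 0.09. Of 18 genes of fatty acid uptake and activation 5 fell and 0 rose (7 and 1 without floxed replicate 3), among them Vldlr, the very low density lipoprotein receptor, from 6517 ± 1779 to 2395 ± 506. The falls in that list numbered 9 with the Xist covariate and 8 with library weights. Of 31 mitochondrial carriers 6 fell and 0 rose (7 and 2 without floxed replicate 3), with Slc25a42, a carrier of coenzyme A, at -1.14 ± 0.13 and Slc25a33, a pyrimidine nucleotide carrier, at -0.97 ± 0.13.

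For the respiratory chain the count of calls depended on the processing. Of 58 tested nuclear-encoded subunits 6 fell and 1 rose, with a median of -0.23 and 54 of the 58 below 0. The falls numbered 1 to 6 when a library was left out, and were fewer by over 1.5 times without floxed replicate 1 or 2 or replicate 1 or 4 labelled Prx1-cre. They numbered 13 under quantile normalization, 11 with library weights, 29 with Xist as a covariate and 3 with the muscle score as one. Atp5g1, one of the genes for subunit c of ATP synthase, rose against the rest, at 1370, 1353, 2507 and 1333 in floxed libraries and 4750, 5917, 6132 and 3639 in those labelled Prx1-cre (log2 fold change 1.66 ± 0.24, limma adjusted p = 0.00379). Floxed replicate 3 was the highest floxed library for it, and without that library the value was 1.89.

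Counts of calls among other fuel genes also moved with the processing. Over all tested genes 9.01% rose and 5.46% fell, and several of the counts here are near those shares. In the citric acid cycle 3 of 27 fell and 2 rose, with Sucla2, a succinyl-CoA synthetase subunit, at -0.70 ± 0.12, and Pdk3, which restrains entry of pyruvate, at 1.24 ± 0.15. Among 22 genes of branched chain amino acid catabolism 4 fell and 1 rose. The riser was Bcat1, the cytosolic transaminase, at 62.99, 45.45, 76.62 and 39.3 against 309.5, 347.6, 208.7 and 222.2 (log2 fold change 2.27 ± 0.25). The lactate and ketone carrier Slc16a1 fell from 2563 ± 399 to 1023 ± 222 (SD, n = 4 each). In the lipid droplet list 4 of 19 fell and 0 rose, led besides Cidea by Plin5, which ties droplets to mitochondria, at -1.51 ± 0.24. Of 20 genes of fatty acid synthesis 1 rose, the elongase Elovl1 (0.61 ± 0.06), and 1 fell, Acacb, whose product malonyl-CoA holds back fat oxidation, from 27610 ± 5008 to 12760 ± 3426. Without floxed replicate 3, 6 genes of branched chain catabolism fell and 2 rose, and 2 genes of fatty acid synthesis rose. The falls became 6 in the citric acid cycle without floxed replicate 4, 5 under median-of-ratios rescaling, 8 under quantile normalization, 11 with library weights and 12 with the Xist covariate. For branched chain catabolism these settings gave 7, 9, 9 and 10 falls, and the muscle covariate 2. When 1 library was left out they became 2 at the lowest for branched chain catabolism, without floxed replicate 2 or replicate 2 or 4 labelled Prx1-cre, and 2 for the lipid droplet list, without replicate 1 or 4 labelled Prx1-cre.

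The largest rise was that of Mest, and some of its neighbours rose with it. Imprinted genes are read mainly from the maternal or the paternal copy, and Mest, an imprinted gene of expanding fat, sits in such a domain on mm10 chromosome 6 (30733506 to 30748466). It was at 248.3, 520.5, 137.3 and 98.99 in floxed replicates 1 to 4 and at 29410, 44400, 17950 and 18170 in those labelled Prx1-cre (log2 fold change 6.95 ± 0.51, limma adjusted p = 0.000291). Klf14, an imprinted transcription factor gene at 223 kb from Mest, was at 27.84, 39.89, 24.35 and 12.09 against 458.4, 573.2, 219.8 and 178.9 (3.68 ± 0.46). For Mest and Klf14 replicates 1 and 2 labelled Prx1-cre were the high ones and replicates 3 and 4 the low ones.

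The rise was not shared by every gene of that stretch. Cep41, named here for its position, rose from 123 ± 17.5 to 400.2 ± 38 (SD, n = 4 each), and Tmem209, at -252 kb, at 0.68 ± 0.11. Copg2, whose end overlaps the end of Mest so that reads there are uncertain between them, was at 1469 ± 63.6 and 1557 ± 96.7 (log2 fold change 0.08 ± 0.06, limma adjusted p = 0.423). Klhdc10 and Zc3hc1, farther out, did not pass either, at 0.10 ± 0.09 and -0.06 ± 0.12. In the Peg3 domain of chromosome 7 all 3 tested genes rose. Peg3, a zinc finger gene read from the paternal copy, was at 2546, 3716, 4369 and 2990 in floxed libraries and 20390, 19600, 18020 and 31890 in those labelled Prx1-cre (2.71 ± 0.22). Usp29, which runs the other way from nearly the same place, was at 4.1, 10.96, 9.719 and 8.326 against 142.7, 205.4, 184.3 and 267.8 (4.47 ± 0.31). It met the filter only through the libraries labelled Prx1-cre, so its passing is no support for a shared rise. Zim1, at -29 kb from Peg3, was at 108.7, 142.1, 83.2 and 105.3 against 1454, 1469, 1156 and 3304 (3.96 ± 0.31). Replicate 4 labelled Prx1-cre was the highest for all 3, whereas it was among the low ones for the genes around Mest. The tested zinc finger genes farther out on either side did not pass, with log2 fold changes from -0.18 to 0.19.

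Peg3 and Usp29 are divided by the short stretch below, which lies outside both genes as annotated in RefSeq (GRCm38, plus strand). It is shown for its place between these genes. Capitals mark its 3 CG pairs, the targets of DNA methylation. Methylation was not measured here.
Between Peg3 and Usp29, chr7:6730463-6730558: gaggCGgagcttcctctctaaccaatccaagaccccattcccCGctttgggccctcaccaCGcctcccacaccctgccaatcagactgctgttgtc

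Of 23 tested imprinted growth genes 9 rose and 0 fell, with a median of 0.28 (11 and 1 without floxed replicate 3). The 9 include Usp29, which met the filter only through the libraries labelled Prx1-cre and so adds no support to the count. Nnat, an imprinted proteolipid gene that lies within Blcap, was at 9426, 10030, 13670 and 6350 against 32010, 38230, 39160 and 45820 (2.02 ± 0.22). Its host Blcap, with which it can share reads, rose from 3998 ± 311 to 6077 ± 201. Cdkn1c, an imprinted inhibitor of the cell cycle, was at 479.1, 530.2, 648.4 and 515.5 against 1690, 1632, 1741 and 1449 (1.59 ± 0.10), and Igf2, a fetal growth factor, rose from 161.4 ± 76.9 to 498.6 ± 85.2. H19, next to Igf2, was at 1179 ± 1510 and 513.8 ± 188 and did not pass (limma adjusted p = 0.7).

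Outside these domains, Socs2 was among the large rises. Socs2, which dampens growth hormone signalling and is itself a STAT5 target, was at 298.7, 695.6, 464.8 and 650.7 in floxed libraries and at 8120, 7140, 5780 and 4913 in those labelled Prx1-cre (log2 fold change 3.67 ± 0.27, limma adjusted p = 0.000291). The adjacent transcript 5730420D15Rik, named like the next genes for its position, rose from 1.411 ± 0.64 to 26.79 ± 2. On the other side Gm29684 rose from 0.9053 ± 1.2 to 18.57 ± 7 and Cradd at 0.60 ± 0.15, while Mrpl42, Ube2n and Nudt4 did not pass. Both 5730420D15Rik and Gm29684 met the filter only through the libraries labelled Prx1-cre, so that their passing is no support for a shared rise. Of the 16 tested genes of growth hormone and STAT5 signalling 2 rose, Socs2 and Bcl6b, and 1 fell, Stat5a (2 and 3 without floxed replicate 3). Over all tested genes 9.01% rose and 5.46% fell. Bcl6b and Stat5a, at 0.46 ± 0.12 and -0.32 ± 0.09, each missed the threshold when any 1 of 6 or more of the other libraries was left out, with adjusted p up to 0.109 and 0.11. Igf1, another target of that pathway, was at 3339 ± 808 and 2381 ± 800 (adjusted p = 0.229).

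**Figure D4:**
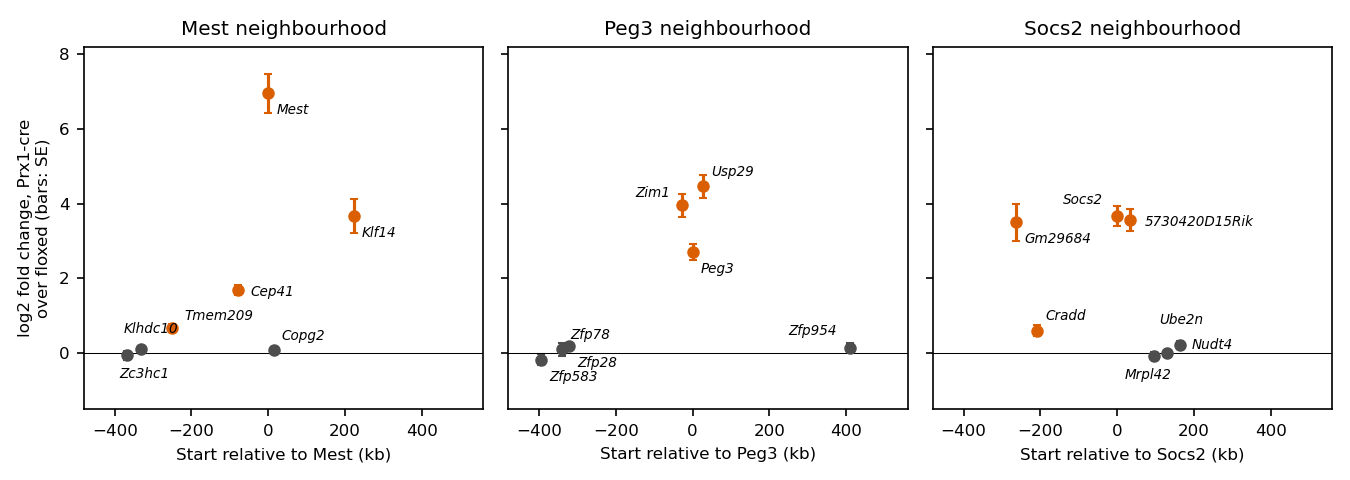
Log2 fold change with its SE (Prx1-cre over floxed) of the genes reported here around Mest, Peg3 and Socs2, against the distance between gene starts (orange, limma adjusted p under 0.05; grey, not past it). Copg2 lies next to Mest at 0.08, and the genes flanking the Peg3 domain lie between -0.18 and 0.19.

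Several genes elsewhere in the genome rose by a large factor. Gpr179, an orphan receptor known from retinal bipolar cells, was at 6.553, 4.981, 0.9398 and 7.591 against 719.2, 617.7, 383.4 and 329.8 (log2 fold change 6.54 ± 0.48). Akr1cl, of the aldo-keto reductase family, was at 1.152, 3.456, 0.9802 and 7.636 against 183.9, 383, 155.2 and 135.8 (5.79 ± 0.53). Gcgr, the glucagon receptor, was at 54.32, 33.68, 54.95 and 47.16 against 297.4, 499.9, 565.4 and 304.9 (3.07 ± 0.26). Gpr179 and Akr1cl were under 10 in each floxed library, so they met the filter only through the group where they were high. Absence of overlap between the groups was a condition for naming these 3 genes. Without floxed replicate 3 the values were 6.06, 5.50 and 3.15. Nat8f3, of the Nat8 family of acetyltransferases, rose at 3.40 ± 0.34. Its close relatives can share reads, so the value of this single gene is uncertain. Flvcr2, a membrane transporter, rose from 102.5 ± 19.4 to 1052 ± 185 (SD, n = 4 each).

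Part of the genes that make and move adenosine rose. Of 25 tested genes of nucleoside transport and adenosine 8 rose and 2 fell, with a median of 0.31 (9 and 3 without floxed replicate 3). The rises numbered 5 at the lowest, and were fewer by over 1.5 times without floxed replicate 1 or 2 or replicate 1 labelled Prx1-cre. Nt5e, the surface enzyme CD73 that turns AMP into adenosine, was at 217.6, 263, 292.1 and 303 in floxed libraries and at 3447, 2905, 2778 and 3267 in those labelled Prx1-cre (log2 fold change 3.53 ± 0.12, limma adjusted p = 7.44e-06). Its spread within each group was small beside the gap. Entpd1, the enzyme CD39 one step upstream, rose from 419.5 ± 33.7 to 679.3 ± 79.1. The nucleoside transporter Slc29a1 was at 1496, 1579, 985.9 and 1549 against 3822, 4063, 2974 and 3551 (1.38 ± 0.16).

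General fat cell genes gave a mixed picture that turned on floxed replicate 3. Of 13 tested adipocyte markers 0 rose and 1, Adrb3, fell (limma, with 3 at an unadjusted p under 0.05), and without that library 3 rose and 1 fell. Adipoq, which encodes adiponectin, was at 51720, 59980, 102700 and 58380 in floxed libraries and at 96930, 108700, 83480 and 93490 in those labelled Prx1-cre. Only floxed replicate 3 reached the level of the other group, and the limma adjusted p was 0.168 with it and 0.0075 without it. Lep, the leptin gene, was at 12960, 14190, 22040 and 7650 against 58800, 40500, 20160 and 26630 (adjusted p = 0.0538, and 0.0147 without floxed replicate 3). Of 15 tested genes of expanding fat 6 rose and 0 fell (8 and 0 without floxed replicate 3). The 6 include the imprinted genes Mest, Peg3 and Nnat described above, and Sncg, gamma-synuclein, at 1.57 ± 0.22. Npr3, the clearance receptor of natriuretic peptides, rose from 4072 ± 1601 to 13310 ± 3880. Among secreted factors the batokine Nrg4 fell at -0.81 ± 0.10. Adam12, a metalloprotease of fat precursors, fell from 4481 ± 446 to 1436 ± 510. It was the 1 fall among 24 progenitor markers, of which 5 rose, with Mgp at 1.46 ± 0.13. Without floxed replicate 3, 7 rose and 6 fell, and the rises fell short of 5 by over 1.5 times, to 2 at the lowest, without floxed replicate 1 or 2 or replicate 1 or 3 labelled Prx1-cre. Pdgfra, a marker of fat precursors, was at 1314 ± 63 and 1670 ± 338 (adjusted p = 0.141).

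Genes of each matrix class rose. Of 31 tested collagen chains 14 rose and 1 fell, with a median of 0.83 (16 and 4 without floxed replicate 3). Col1a1, a chain of the main fibrillar collagen, was at 3382, 4473, 2357 and 4685 in floxed libraries and at 12420, 12180, 14600 and 9806 in those labelled Prx1-cre (log2 fold change 1.75 ± 0.22). Col12a1, which sits on collagen fibrils, rose at 1.72 ± 0.20, and Col4a1 of the basement membrane from 17900 ± 3515 to 39900 ± 7288. Every library labelled Prx1-cre was above every floxed library for these 3 genes. Of 46 matrix glycoproteins 24 rose and 1 fell (24 and 2 without floxed replicate 3, and 15 rose without floxed replicate 2), with a median of 0.63. Thbs2, a matricellular thrombospondin, was at 3399, 2448, 4364 and 2843 against 16090, 11310, 11210 and 24720. Ogn, a small leucine-rich proteoglycan, rose at 1.74 ± 0.19. Of 49 matrix enzymes and inhibitors 16 rose and 1 fell (19 and 3 without floxed replicate 3). Adamts2, which trims procollagen, was at 1798, 1634, 1794 and 1858 against 6971, 6812, 4939 and 5660 (1.77 ± 0.11). Vim, the intermediate filament of mesenchymal cells, rose from 14820 ± 2748 to 39230 ± 3783.

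Most macrophage markers were higher in the libraries labelled Prx1-cre: 18 of 30 rose and 0 fell, with a median of 0.83 (19 and 1 without floxed replicate 3). Their sum, which the most abundant of them dominate, overlapped between the groups, at 204700 to 294400 in floxed libraries and 245600 to 313400 in those labelled Prx1-cre. The list holds Lpl, which is also in the adipocyte list, so this sum does not measure macrophage content alone. Adgre1, the F4/80 antigen, was at 416, 341.7, 321.3 and 368 against 587.6, 638.7, 639.7 and 838.7 (log2 fold change 0.89 ± 0.13). Mmp12, the macrophage elastase, was at 63.15, 50.42, 177.8 and 60.7 against 886.4, 1945, 433.6 and 541.3 (3.36 ± 0.53), and Ctss, a cysteine protease of phagocytes, rose at 1.34 ± 0.14. Of 30 chemokines and receptors 5 rose and 0 fell (5 and 2 without floxed replicate 3, and 3 rises without floxed replicate 2 or 4 or replicate 2 labelled Prx1-cre). Cxcl9, which attracts T cells, was at 539.7, 643.9, 815.5 and 587.8 against 2399, 3759, 2053 and 2189, and Ccl2, which attracts monocytes, rose from 13.27 ± 5.2 to 79.77 ± 27.4. Of the tested T and NK cell markers 0 of 12 rose or fell with all libraries, with a median of -0.49. In limma 6 were at an unadjusted p under 0.05, 5 of them lower in libraries labelled Prx1-cre. Without floxed replicate 3, 1 rose and 0 fell. Jchain of plasma cells fell at -1.30 ± 0.24. The part of the macrophage content in the rise of the matrix genes was not tested.

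Of 21 endothelial markers 3 rose, Vwf (0.63 ± 0.08), Plvap (0.61 ± 0.09) and Aqp1 (0.88 ± 0.16), and 20 of the 21 were above 0. The count of rises was 13 without floxed replicate 3, 14 with library weights, 10 with the muscle covariate and 5 under quantile normalization. Of 19 genes of neurotrophins and axon guidance 6 rose and 2 fell (7 and 4 without floxed replicate 3). Ntrk3, the receptor of neurotrophin 3, was at 14.25, 22.33, 20.25 and 23.55 against 67.12, 47.11, 77.42 and 79.44 (1.70 ± 0.24). Ret, the receptor of the GDNF family, rose from 223.6 ± 50.1 to 605.7 ± 236, and Slit3, a guidance cue, from 2010 ± 334 to 4765 ± 637. The 3 were higher in every library labelled Prx1-cre. S100b, a protein of Schwann cells and thermogenic fat cells, fell at -1.32 ± 0.24, while 16 of 17 Schwann cell markers did not pass with all libraries. Without floxed replicate 3, 1 of the 17 rose and 3 fell.

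Detoxifying enzymes were divided: 12 of 45 rose and 7 fell, with a median of 0.02 (12 and 7 without floxed replicate 3, and 7 rises without floxed replicate 2). Ugt1a6a, which adds glucuronic acid, was at 629.7, 620.1, 621.9 and 636.3 in floxed libraries and at 2047, 1578, 1550 and 1596 in those labelled Prx1-cre (log2 fold change 1.42 ± 0.09). Its relatives of the Ugt1a locus share exons, so the total is uncertain between them. Cyp2b10, a cytochrome P450 induced through the receptor CAR in liver, was at 1111, 252.2, 1341 and 725.3 against 13.07, 11.59, 97.21 and 98.88 (-4.32 ± 0.83). Among immediate early genes 5 of 18 rose and 0 fell, and 2 to 6 rose when a library was left out, fewer by over 1.5 times without any 1 library other than floxed replicates 3 and 4. Nr4a2, an orphan receptor induced by cAMP, rose at 1.35 ± 0.22.

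Genes of the major urinary protein (Mup) family were among the largest falls in counts, and moved in part with the mammary markers. Summed over 15 Mup genes, the floxed replicates 1 to 4 held 99230, 95700, 19160 and 132600 normalized counts and those labelled Prx1-cre 10510, 13300, 9197 and 14010. Floxed replicate 3, the library lowest in mammary markers, was the lowest floxed library here too, yet above the 4 labelled Prx1-cre. Of 7 tested Mup genes 6 fell. Near-identical copies share reads, so single Mup genes are uncertain: Mup7 had a log2 fold change of -2.56 ± 0.52 with floxed replicate 3 and -3.16 without it, and Mup10 -2.77 ± 0.66 and -3.50. Mup10 missed the threshold when any 1 library other than floxed replicate 3 was left out, with limma adjusted p up to 0.0787. Of 12 tested mammary markers 0 passed with all libraries (limma, with 2 at an unadjusted p under 0.05), and 11 fell without floxed replicate 3. Whether mammary tissue has a part in the Mup values was not tested. Brms1, a gene linked to metastasis suppression, was at 297, 402.5, 320.1 and 446.5 in floxed libraries and at 0, 28.04, 20.72 and 94.49 in those labelled Prx1-cre. Its fall missed the threshold without floxed replicate 1, 2 or 4 or replicate 2 or 3 labelled Prx1-cre (adjusted p up to 0.0905).

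The same genotypes were also sampled at P25 and 22 C, with 7 floxed and 8 Prx1-cre libraries in a table of its own. There 450 of 12738 genes changed (3.53%), 199 up (1.56%) and 251 down (1.97%). The 2 comparisons share no library. Of the 199 genes that rose at P25, 152 (76.4%) also rose at 9 weeks and 0 fell, and these were 13.0% of the genes that rose at 9 weeks. Of 250 that fell at P25 and were tested at both ages, 161 (64.4%) also fell and 2 rose, and the shared falls were 22.6% of those at 9 weeks. Among all 12487 genes tested at both ages, 1165 rose and 711 fell at 9 weeks. Without floxed replicate 3 the overlaps were 167 and 173, where 1774 of all these genes rose and 1541 fell. Over the 12487 genes tested at both ages r was 0.66 between their log2 fold changes, or 0.59 without that library; genes are not replicates of one another. Nt5e rose at both ages (3.53 ± 0.12 at 9 weeks, 2.56 at P25), as did Gpr179 (6.54 and 5.03), Flvcr2 (3.35 and 2.71) and Socs2 (3.67 and 2.84). Of these, Gpr179 met the filter at 9 weeks only through the libraries labelled Prx1-cre.

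A few genes differed between the ages by a test of the difference itself. In a joint fit of both ages, 12 of 12487 genes passed (0.0961%), and 3 to 60 did when 1 library was left out, with 60 without floxed replicate 3. Dlk1, an imprinted inhibitor of fat cell formation, rose at P25 by 2.81 and was at 20.57, 18.82, 11.21 and 8.718 against 15.59, 6.489, 6.746 and 5.594 at 9 weeks, where it did not pass (-0.75 ± 0.40). The difference, 9 weeks minus P25, was -3.56 ± 0.50 (limma adjusted p = 0.00355). Ergic1, a protein of the path from endoplasmic reticulum to Golgi, was at 972, 619, 628.4 and 438.5 in floxed libraries and 107.1, 141.5, 152.6 and 118.3 in those labelled Prx1-cre at 9 weeks, and at a log2 fold change of 0.09 at P25. Gpx3, the secreted glutathione peroxidase, rose at 9 weeks (1.01 ± 0.16) and fell at P25 (-0.68). Tnc, a matrix protein of remodelling tissue, was at 152.8, 156.3, 207.3 and 210.9 against 1666, 1185, 898.9 and 938.9 and rose at both ages, by 2.65 at 9 weeks and 0.86 at P25. St3gal5, which makes the ganglioside GM3, and Slc38a2, a carrier of neutral amino acids, fell at 9 weeks at -1.88 ± 0.23 and -0.43 ± 0.06 and were at -0.07 and -0.01 at P25, differences of -1.80 and -0.42. Age, temperature and the levels of Xist, the noncoding RNA of the inactive X chromosome, all differ between these tables. Xist was high in all 8 libraries at 9 weeks but in 3 of 7 floxed and 4 of 8 Prx1-cre libraries at P25. These cannot be told apart.

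Wild-type adults of 9 weeks were also sampled at 22 C and 4 C. In that comparison of 4 against 4 libraries, 542 of 12118 genes changed (4.47%), 246 up (2.03%) and 296 down (2.44%), and 36 to 351 did when 1 of its libraries was left out. It shares no library with the Bcl6 comparison. Xist was high in every library of the Bcl6 comparison at 9 weeks but mixed among the wild-type ones. The part of that difference in what follows was not tested. Of 245 genes that rose in the cold and were tested in both, 92 (37.6%) fell in the libraries labelled Prx1-cre and 15 (6.1%) rose, against 5.46% and 9.01% of all tested genes. Of 296 that fell in the cold, 85 (28.7%) rose and 8 (2.7%) fell. Without floxed replicate 3 the opposite calls numbered 103 and 119 and the calls in the same direction 25 and 11. Calls over all genes grew too: of the 12075 tested in both, 1583 fell and 1694 rose in that setting, against 710 and 1098 with all libraries. Seen from the other side, 13.0% of genes that fell with the Prx1-cre label had risen in wild-type cold and 7.7% of those that rose had fallen. Over these 12075 genes r was -0.34.

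Single genes show both the extent and the limits of this mirror. Cyp2b10 was at 1.438 ± 0.97 at 22 C and 1524 ± 981 at 4 C in wild type (log2 fold change 8.99), and fell with the Prx1-cre label at -4.32. Fabp3 rose in wild-type cold by 5.92, Elovl3 by 5.52, Ergic1 by 4.56, Perm1 by 4.54 and Gk by 4.21, and each fell with the Prx1-cre label. Mest fell in wild-type cold at -3.04, Nnat at -3.45 and Klf14 at -2.22, and each rose with the label. Other large risers did not pass in wild-type cold, among them Socs2 (0.62), Nt5e (0.85), Rgs16 (-1.06) and Flvcr2 (0.38). Some genes moved the same way in both comparisons. Adra1a rose by 1.62 in wild-type cold and by 0.72 with the label, and Cspg4, a mural cell marker, fell at -1.44 and -0.82. Bcl6 itself was at 567.1 ± 182 and 624.6 ± 161 in wild-type mice at 22 C and 4 C (limma adjusted p = 0.765). Lgr6, a receptor of R-spondins, rose in wild-type cold by 3.43 and fell with the label from 172.1 ± 51.9 to 34.32 ± 15.7. Bcl6 f/f Prx1-cre mice at 9 weeks and 22 C were not analysed here, so the effect of the genotype on the response to cold cannot be told apart from its effect in warm adults of this age.

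**Figure D5:**
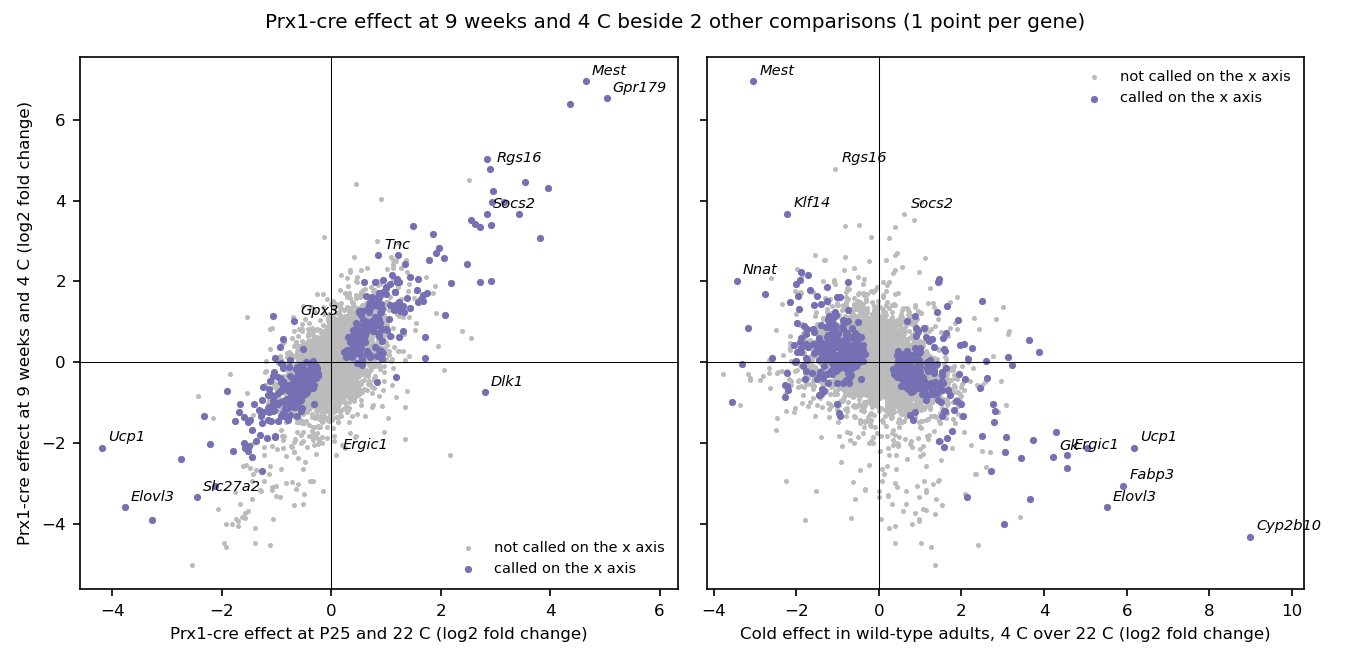
Log2 fold change of each gene for Prx1-cre over floxed at 9 weeks and 4 C (vertical) against the same contrast at P25 and 22 C (left) and against 4 C over 22 C in wild-type adults (right). Purple points passed limma's adjusted p of 0.05 on the horizontal axis. Mest, Gpr179 and Socs2 lie at the upper right of the left panel, and Cyp2b10, Ucp1, Elovl3 and Fabp3 at the lower right of the right panel.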

How the data were processed

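The authors deposited signal values, normalized counts per gene, with a separate table for each comparison. The submitters' processing notes name kallisto and DESeq2 on mm10; the authors' settings are not stated in the labels. The values are not whole (23.3 to 40.2% of low values lay within 0.02 of a whole number of reads), so no count model was used and depth is approximate. Values were tested as log2(value + 1) with limma 3.58.1 in R 4.3.3 with its mean-variance trend, over genes that reached 10 in 4 libraries (7 at P25), with Benjamini-Hochberg adjustment over all tested genes and a threshold of 0.05. On this scale fold changes of low genes are understated. All columns were mapped to groups by name. Names came from RefSeq (22601 of 22622 rows matched).

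The genotype, the 56 gene lists and the panel were chosen with earlier results of these data known. Named were Bcl6, Prrx1, a panel of 16 genes of which 1 is not analysed here, the 15 largest called rises and falls without overlap and with a mean of at least 100, predicted genes left out, the 10 largest in counts each way, up to 4 per list, and 8 each way for the difference between ages. The labels do not say that replicate numbers pair the samples, and the main fit did not pair them. Deviations of same-numbered libraries from their group means correlated at -0.346 to 0.161. Because floxed replicate 3 shifts its group mean, these values cannot exclude a pairing. The alternatives tried were pseudocounts of 0.5 and 5, other filters, quantile normalization, median-of-ratios rescaling, a replicate block, library weights, no trend, covariates for Xist and muscle, and each library left out. The Xist covariate was a cut among libraries that all had high Xist, and it overlaps with the label. Of 196 named genes called, 156 were called in each fit that left out 1 library. Plots used matplotlib 3.10.9 under Python 3.11.15. Some genes are not reported here.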

Additional observations from a re-analysis of the deposited data

Results flagged for a closer look

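Chance would flag about 1 in 20 groups here. Among 59 genes examined in 2 groups each, 118 groups in all, 7 values stood apart from the other 3 of their group, which is near that share. Of these 5 were in floxed replicate 3: Adipoq at 102700 (others 51720 to 59980), Aoc3 at 53420 (30250 to 31900), Slc27a1 at 49450 (34900 to 36700), Prrx1 at 1828 (1411 to 1466) and Mmp12 at 177.8 (50.42 to 63.15). The other two were Zim1 at 3304 in replicate 4 labelled Prx1-cre (1156 to 1469) and Tmem82 at 230 in floxed replicate 1 (164.1 to 172.7).

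The Prx1-cre effect at 9 weeks minus that at P25 passed the test of the difference for 12 genes, 6 with a positive value. These were Lypd1 at 2.21, Rgs16 at 1.89, Tnc at 1.79, Gpx3 at 1.70, Cxcl9 at 1.39 and BC051226 at 1.13 on the log2 scale. The negative ones were Dlk1 at -3.56, Ergic1 at -2.39, St3gal5 at -1.80, Gmpr at -1.65, Cux1 at -0.72 and Slc38a2 at -0.42.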

How the results depend on the processing

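The count of genes called at 9 weeks, 1953 with 1216 up and 737 down, went from 1048 to 3536 when 1 library was left out, with 691 to 1843 up and 357 to 1693 down; the lowest came without floxed replicate 1 and the highest without floxed replicate 3. Library weights gave 4777 (2487 up, 2290 down), the muscle covariate 2959 (1410 down) and the Xist covariate 1335 down. With the numbers as a replicate block, 1171 genes were called, 727 up and 444 down. The labels do not say that the numbers pair the samples. The cause of these shifts was not tested, except that fits without a library use fewer samples. The 12 genes that differed between ages became 38 with separate spreads and 3 to 60 without 1 library. The cold effect in wild type, 542 genes, became 36 to 351 without 1 library. No named gene reversed direction under any alternative run. Of 196 named genes called, 0 lost their call without floxed replicate 3, 36 without floxed replicate 1 and 31 under the replicate block. Pseudocounts, filters, quantile normalization, rescaling and no trend each lost at most 8. Few reads limit Usp29, Akr1cl and Gpr179 in the floxed libraries, where the size of the fold change is least certain. Among the gene lists, library weights or the muscle covariate also brought 11 and 10 falls among mammary markers (0 with neither), 8 and 4 falls among collagens (1), 7 and 8 among progenitor markers (1), and 8 and 3 rises among chemokines (5). The replicate block gave 2 rises for the adrenergic list, 7 for detoxification, 3 for neurotrophins, 2 for immediate early genes and 2 for progenitor markers, fewer by over 1.5 times.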
